A study of Mus musculus with 7 samples.

Results

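Lyve1, Folr2, Cd163, F13a1, Mrc1, Cd209f, Cd209g, Retnla and Wfdc17 are 9 genes of tissue-resident and repair-type macrophages, and they were followed here through the cells of mouse aorta. They are 9 of the 31253 genes counted. Their level was summed in each library over macrophages, which were chosen by 4 other genes. A cell entered when at least 3 of C1qa, C1qb, C1qc and Csf1r had at least 1 unique molecular identifier (UMI, a count of 1 captured transcript) and Pdgfra, a fibroblast gene, had 0. This gate held 3745 of 67477 kept cells (76359 barcodes before filtering). The cells were thus chosen by the measured values of the gate genes, which are not used as results. All libraries came from the aorta of mice fed a high-salt diet for 3 weeks. The 3 flox control libraries carry the genotype Slc38a2flox/flox, with recombination sites around the gene of an amino acid transporter. The 4 endothelial knockout libraries carry Slc38a2deltaEC, in which that gene is deleted in endothelial cells. The labels name neither the promoter that drives the deletion nor the age or sex of the mice. They do not say whether a library is 1 animal either, so the p-values refer to variation from library to library, part of which may be technical.

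Macrophages that settle in the wall of arteries before or around birth and renew themselves there lie mostly in the adventitia, beside nerves and small vessels. They take up debris, plasma proteins and matrix fragments, and are often told apart from recently arrived monocyte-derived cells by scavenging and lectin receptors. Lyve1 encodes a receptor for hyaluronan that lymphatic endothelium also carries, Mrc1 the mannose receptor, Cd163 the scavenger receptor for haemoglobin bound to haptoglobin, and Folr2 the beta folate receptor. Cd209f and Cd209g encode C-type lectins of the DC-SIGN family. F13a1 encodes the catalytic subunit of coagulation factor XIII, which crosslinks fibrin. Retnla and Wfdc17 encode small secreted proteins, a resistin-like molecule that is a hallmark of alternative activation through STAT6, and a whey acidic protein domain protein first described in activated microglia and macrophages. The gene bodies lie on GRCm38 with Lyve1 at chr7:110850607-110863239 (minus strand), Folr2 at chr7:101839988-101857194 (minus strand), Cd163 at chr6:124304656-124330527 (plus strand), F13a1 at chr13:36867178-37050244 (minus strand) and Mrc1 at chr2:14229392-14332057 (plus strand). Of the lectins and secreted proteins, Cd209f at chr8:4102787-4105835 (minus strand), Cd209g at chr8:4134098-4137707 (plus strand), Retnla at chr16:48842551-48844461 (plus strand) and Wfdc17 at chr11:83703991-83706268 (plus strand) follow.

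The macrophages of flox control libraries 1, 2 and 3 numbered 524, 784 and 144, and those of knockout libraries 1, 2, 3 and 4 numbered 346, 631, 687 and 629. They held 558626 to 4204420 UMIs per library, with a median of 3410.5 to 5621 per cell. Levels are CPM, the UMIs of a gene per 1000000 UMIs of the gated cells. Macrophage genes outside the gate were present in all 7 libraries. Adgre1 (F4/80) was 402 to 531 in macrophages against 0.460 to 2.10 in fibroblast-like cells, and Cd68 817 to 1202 against 7.86 to 15.4. Ptprc was 439 to 591 against 0.588 to 4.58. Mertk was 48.3 to 139 in macrophages against 9.95 to 16.2 in fibroblast-like cells. It did not set macrophages apart from smooth muscle-like (63.6 to 92.0) or endothelial-like cells (48.8 to 90.3). The label names the cell type as goblet cells, an epithelial type whose markers were not examined here. Slc38a2 in endothelial-like cells was 444, 375 and 281 in the controls against 210, 272, 328 and 280.4 in the knockouts, so the groups overlapped (log2 fold change -0.35, SE 0.22, adjusted p = 0.781). Macrophages had 430.1, 347 and 455 in the controls and 278, 347, 317 and 266 in the knockouts (fitted log2 fold change -0.46, SE 0.20, adjusted p = 0.717), a difference at least as large as in the endothelial-like cells, and neither was called. Between 1.39% and 6.30% of macrophages also met the gate of another cell type. Pairs of libraries shared 1.10% to 1.79% of the barcodes of the smaller one. Flox control 3 stood apart, with the fewest macrophages and the lowest level of 8 of the 9 genes, so values without it are given below.

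Upstream sequence of 4 of the genes is shown because the data set them apart from one another. Folr2 had the widest gap in detection between Lyve1-detected macrophages and the others, Retnla was the 1 tested gene whose level was not called higher in Lyve1-detected cells, Wfdc17 was the only one of the 9 whose groups did not overlap between genotypes, and Cd209f shares transcript sequence with its neighbour Cd209g. The 5' to 3' sequences are from RefSeq (GRCm38.p6), in which 8 of the 9 genes had an entry, and end at the base before the first start of the gene in RefSeq or GENCODE. They lie at chr7:101857195-101857440 (minus strand) for Folr2, chr16:48842359-48842550 (plus) for Retnla, chr11:83703806-83703990 (plus) for Wfdc17 and chr8:4105836-4106014 (minus) for Cd209f. Capitals mark matches, on either strand, to 3 motifs: the STAT6 palindrome (TTC and GAA with 4 bases between), the PU.1 core GGAAGT and the C/EBP motif TTGCNNAA.
Folr2: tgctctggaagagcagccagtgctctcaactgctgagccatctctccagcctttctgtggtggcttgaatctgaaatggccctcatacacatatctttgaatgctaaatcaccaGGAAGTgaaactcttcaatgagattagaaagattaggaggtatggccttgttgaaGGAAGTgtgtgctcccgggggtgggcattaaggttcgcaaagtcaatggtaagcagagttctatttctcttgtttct
Retnla: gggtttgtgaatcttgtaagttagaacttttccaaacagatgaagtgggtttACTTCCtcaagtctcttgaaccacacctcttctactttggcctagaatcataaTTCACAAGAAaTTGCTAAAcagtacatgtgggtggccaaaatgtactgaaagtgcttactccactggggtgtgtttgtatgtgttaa
Wfdc17: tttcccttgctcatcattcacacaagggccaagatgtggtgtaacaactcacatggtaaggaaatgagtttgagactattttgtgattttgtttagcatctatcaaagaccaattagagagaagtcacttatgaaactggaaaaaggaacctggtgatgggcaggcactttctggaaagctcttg
Cd209f: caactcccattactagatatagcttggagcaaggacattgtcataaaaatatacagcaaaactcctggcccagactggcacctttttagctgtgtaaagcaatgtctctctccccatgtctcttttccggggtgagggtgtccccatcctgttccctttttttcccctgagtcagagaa
The Retnla sequence held 1 STAT6 palindrome, 1 C/EBP motif and 1 PU.1 core on the reverse strand, with no overlap among them. Within the same number of bases, 4.58%, 7.84% and 13.9% of 32851 RefSeq promoters held these motifs. The Folr2 sequence held 2 PU.1 cores, and 19.3% of promoters held at least 1 in that length. Wfdc17 and Cd209f held no match in these windows. The MAF half-site TGCTGAC was also searched on either strand, and none of these sequences held it. A match is a description of letters and not a measured binding site.

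Of each gene's UMIs over all kept cells, 81.6% (Wfdc17) to 90.9% (Folr2) lay in gated macrophages. In knockout 3 the gate held 91.6% to 96.7% of a gene's UMIs, and in flox control 1 it held 63.6% to 76.2%. In flox control 1, 126 cells had the macrophage genes together with Pdgfra and so fell outside the gate, against 3 to 38 in the other libraries.

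7 of the 9 genes had their highest mean level in macrophages among the 12 gated types, and Lyve1 and Wfdc17 did not. Lyve1 was higher in lymphatic endothelial-like cells, at 3438, 6830.0, 14283, 6051 and 6345 in the 5 libraries that had any, against 1011 to 4604 in macrophages. Only 23 such cells were found, 0 in flox control 3 and knockout 4, and all 23 had a Lyve1 UMI. Blood endothelial-like cells had Lyve1 at 3.19 to 40.9. Mrc1 was next highest in the same lymphatic cells, at 78.6 to 159 from 6 UMIs in all.
F13a1 was second highest in monocyte-like cells, where 76.6% of 107 cells had a UMI (95% exact binomial interval 67.5% to 84.3%). Knockouts 1 and 4, the only libraries with at least 20 monocyte-like cells, had 1273 and 366 CPM. Those 107 cells held no UMI of Lyve1, Cd209f or Cd209g, which allows up to 5.51 CPM. F13a1 and Wfdc17 were thus present in both kinds of cell, and Lyve1 was detected in macrophages alone of the pair.
Wfdc17 was highest in neutrophil-like cells, at 330.7 to 2081 over the 7 libraries, above the macrophages of the same library in 6 of 7. In the libraries with at least 20 neutrophil-like cells it was 715 (knockout 1) and 893 (knockout 4). Monocyte-like cells had it at 237 to 510.3, a range inside that of macrophages (132 to 505) but for the top.
In fibroblast-like cells the 9 genes were present at a mean over libraries of 0.0984 (Cd209g) to 7.05 (Lyve1) CPM, and 3.51% of these cells had a Lyve1 UMI against 82.7% of macrophages. Their median depth was 4449 to 7141 UMIs per cell over the libraries, against 3410.5 to 5621 in macrophages. The heat map of levels by cell type has the same leading type for each gene with libraries pooled, and types at low levels change places.

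**Figure D1:**
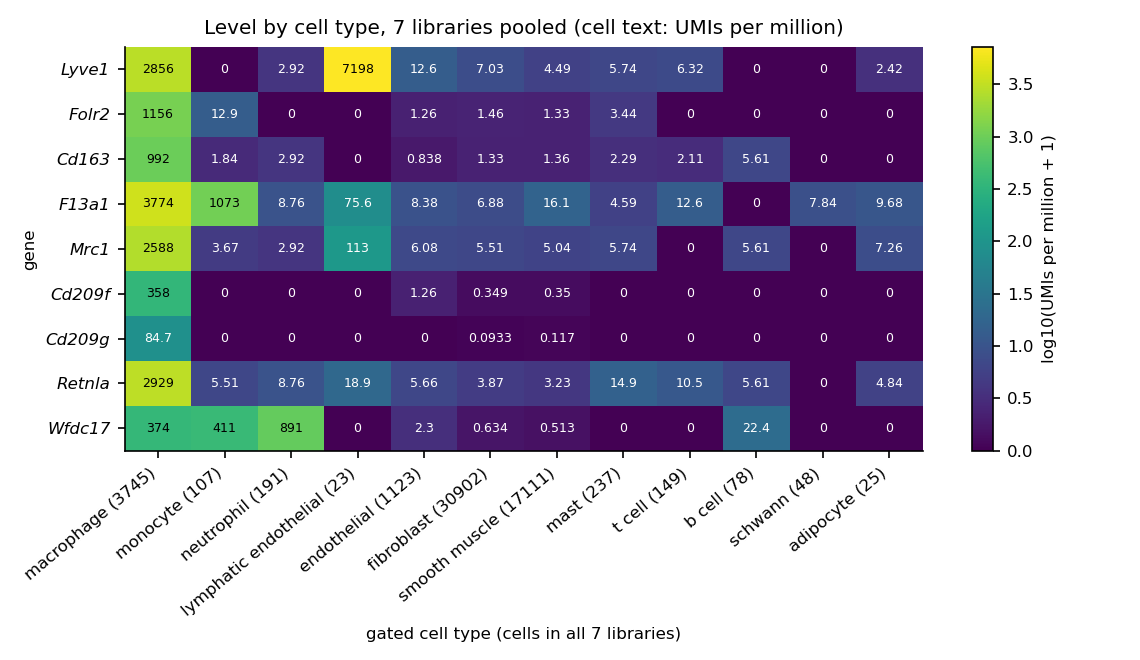
Level of each gene (rows) in each gated cell type (columns, with the number of cells), all 7 libraries pooled, coloured by log10(CPM + 1) and printed as CPM. Macrophages lead every row but Lyve1, led by lymphatic endothelial-like cells, and Wfdc17, led by neutrophil-like cells.

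The genotype comparison asked whether macrophages differ between mice with the endothelial deletion of Slc38a2 and flox controls. None of the 9 genes passed adjusted p under 0.05, nor did any of 10399 genes tested (0% called by edgeR, 713 with an unadjusted p under 0.05, 2 called by DESeq2). All 9 genes passed the filter on low counts. 7 were higher and 2 lower in the knockouts, and their log2 fold changes had a median of 0.51, against -0.00405 over all genes tested, of which 49.5% were higher. Only Wfdc17 had groups that did not overlap, and 7.95% of all tested genes had such groups (3.85% higher, 4.11% lower). The 4 gate genes summed to 8082, 7816 and 6716 CPM in the controls against 10241, 8319, 8363 and 9389 in the knockouts. They chose the cells, so this is a limit of the comparison and not a result, and its part in the differences was not tested.

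Among the secreted proteins, Wfdc17 was 201, 307 and 132 in the controls against 505, 401, 453 and 425 in the knockouts. All 4 knockouts exceeded all 3 controls. This gave a log2 fold change of 1.06 (SE 0.22), with an adjusted p of 0.717 by edgeR and of 0.0389 by DESeq2. Without flox control 3 it was 0.89 (adjusted p = 0.459), and over the 15 alternatives it ran from 0.88 to 1.37 with adjusted p of 0.0389 to 1.00. The share of macrophages with a Wfdc17 UMI showed the same separation when every cell was thinned to 2000 UMIs. That share was 25.5%, 36.1% and 20.5% in the controls against 39.8%, 40.4%, 39.1% and 42.3% in the knockouts, and without thinning 54.5% and 53.5% in knockouts 4 and 1 lay below the 55.0% of flox control 2.
Retnla was 1378, 2742 and 2998 in the controls against 4612, 2267, 2686 and 4619 in the knockouts. Knockouts 1 and 4 were high, and the other 2 lay within the flox controls. The log2 fold change was 0.52 (SE 0.35, adjusted p = 0.769). It is the 1 gene of the 9 that was not lowest in flox control 3, and without that library its value was 0.85 (adjusted p = 0.582). Without flox control 1 it was 0.22 and without knockout 4 it was 0.34.

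The lectins Cd209f and Cd209g lie 28.3 kb apart on chromosome 8, and 36.3% of the 31-base words of Cd209f transcripts also occur in those of Cd209g, so their counts may be split uncertainly. Cd209f was 230.4, 311 and 71.6 in the controls against 219, 488, 419 and 427 in the knockouts. Knockout 1 lay among the flox controls and the other 3 above them. The log2 fold change was 0.95 (SE 0.40, adjusted p = 0.717). It was 0.62 without flox control 3, where 40 UMIs stood behind the value. Cd209g was 48.8, 68.8 and 32.2 against 50.1, 124, 87.1 and 119, again with knockout 1 among the controls. Its log2 fold change was 0.91 (SE 0.33, adjusted p = 0.717).

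Of the scavenger and uptake receptors, Lyve1 was 2972, 2749.6 and 1011 in the controls against 4604, 2577, 2940.0 and 2373 in the knockouts. Flox control 3 was low and knockout 1 high, and the other 5 lay between 2373 and 2972. The log2 fold change of 0.49 (SE 0.31, adjusted p = 0.759) became 0.19 without flox control 3 and 0.30 without knockout 1.
Folr2 was 958, 1209 and 431 against 1403, 1105, 1289 and 1096, with 1 flox control inside the range of the knockouts. Its log2 fold change was 0.51 (SE 0.26, adjusted p = 0.737), 0.25 without flox control 3 and 0.80 without flox control 2.
Cd163 went the other way in the fit, at 1446, 1148 and 516 in the controls against 682, 842, 1134 and 644 in the knockouts. The highest and the lowest library were both flox controls, and the log2 fold change was -0.30 (SE 0.30, adjusted p = 0.835). Without flox control 3 it was -0.56 (SE 0.26, adjusted p = 0.589) and without flox control 1 it was -0.024. Without knockouts 1 and 3 in turn it was -0.18 and -0.50.
Mrc1 was 2913, 2922 and 1679 against 2267, 2699, 2753 and 1832, which gave -0.06 (SE 0.22, adjusted p = 0.989). Its sign turned in 5 of 15 alternative settings, and its highest library was 1.74 times its lowest, the smallest ratio of the 9.
F13a1, the factor XIII subunit, was 3533, 3866 and 1962 against 4994, 3661, 4196 and 2917 (log2 fold change 0.34, SE 0.23, adjusted p = 0.776). It was 0.16 without flox control 3.

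**Figure D2:**
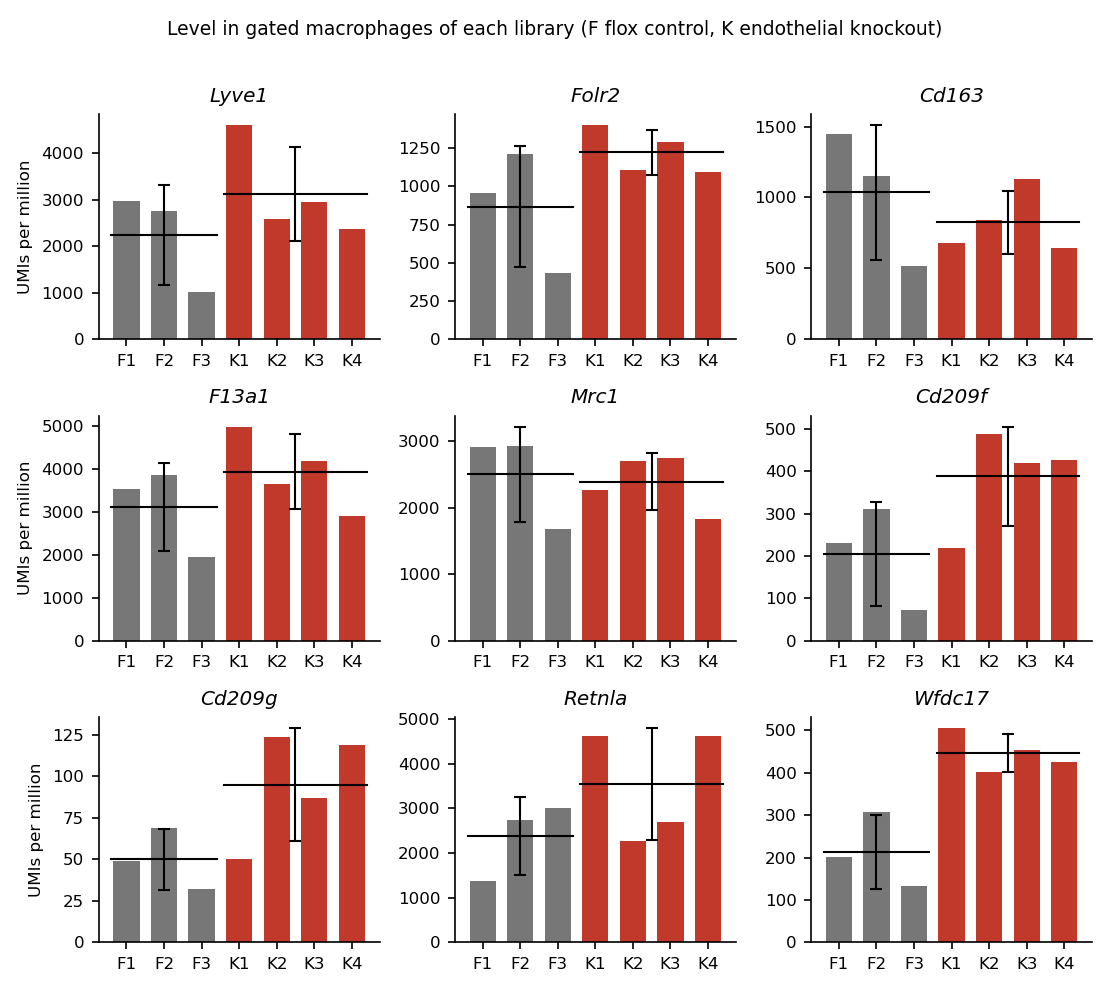
CPM of each gene in gated macrophages of the 3 flox control (F1 to F3, grey) and 4 endothelial knockout (K1 to K4, red) libraries. Lines and bars are group means ± SD. F3 is lowest in every panel but Retnla, and Wfdc17 is the 1 panel in which all red bars exceed all grey ones.

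**Figure D3:**
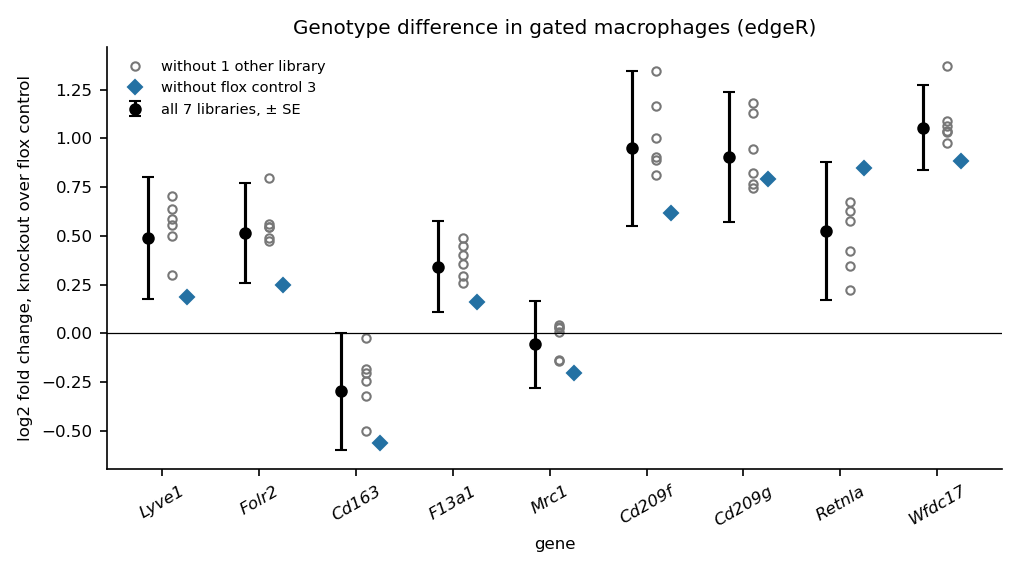
Log2 fold change of each gene between genotypes from all 7 libraries (black, ± SE), without flox control 3 (blue diamonds) and without each other library (open circles). Wfdc17 stays between 0.89 and 1.37 in these fits, while Lyve1, Folr2 and F13a1 fall to 0.25 or less without flox control 3.

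Without flox control 3 the median log2 fold change of the 9 genes was 0.25 in place of 0.51, and 7 of 9 were above 0. Summed over the 9 genes, macrophages held 13680.4, 15325 and 8834 CPM in the controls against 19337, 14163, 15957 and 14453 in the knockouts. Flox control 3 was also the library richest in inflammatory transcripts. The 17 genes of a fixed inflammation list summed to 57788 there, against 15404 and 20747 in the other flox controls and 13526 to 24567 in the knockouts. Cxcl2, a neutrophil chemokine, reached 24242 in flox control 3 against 4459.8 to 9731 in the other 6 libraries. Tnf was 4098 there against 978 to 1726. 15 of 16 tested genes of that list were lower in the knockouts (median log2 fold change -0.70) and none was called. Without flox control 3, 10 of the 16 were higher (median 0.13). Nfkb1, Ptgs2, Tnf and Cxcl10 had the smallest p, at log2 fold changes of -0.60, -1.08, -0.97 and -1.33 (adjusted p = 0.717 to 0.734). How far the inflammatory state of 1 library sets the difference of the 9 genes was not tested.

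Of 27 other genes of resident macrophages, none was called. In the fit 23 were higher and 4 lower in the knockouts (median log2 fold change 0.21), and 5 had groups without overlap, beside 7.95% of all tested genes. Without flox control 3, 18 were higher and 9 lower (median 0.11). Their sum was 19628, 23444 and 14278 in the controls against 21199.9 to 23245 in the knockouts, so flox control 2 lay above every knockout and flox control 3 below all libraries. The plasma lectin gene Fcna, at 264, 320 and 77.0 against 578, 364, 449 and 584, had a log2 fold change of 1.17 (SE 0.34, adjusted p = 0.717). Fcgrt (neonatal Fc receptor) and Ltc4s (leukotriene C4 synthase) had values of 0.53 and 0.62 and also did not overlap. Of 16 tested genes of alternative activation 10 were higher and 6 lower (median 0.11, 0 called), and 8 and 8 without knockout 4 (median -0.06). The eosinophil chemokine Ccl24 was higher without overlap (log2 fold change 0.80) and Tgfb1 lower without overlap (-0.56), while Klf4 (0.65) and Klf2 (0.68) overlapped. Of 12 tested genes of antigen presentation and recent monocyte origin, 11 were higher (median 0.26, 0 called), but 4 without knockout 4 (median -0.09) and 5 without flox control 1 (median -0.08). Knockout 4 stood out here, with H2-Aa at 6315 against 1869 to 3614 in the other libraries. Of 14 immediate early and heat shock genes, 12 were higher (median 0.21, 0 called), with Jun at 0.57, Hspa1a at 0.63, Hspa1b at 0.50 and Ier2 at 0.28. Without knockout 2, 9 were higher (median 0.10), and without knockout 1 all 14 were (median 0.26). The sums of this list overlapped, at 13250 to 20829 in the controls and 16138 to 23651 in the knockouts.

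Marker genes of other cell types were present within the macrophage gate, with sums that overlapped between genotypes and were high in single libraries. The 4 fibroblast markers summed to 606, 159 and 139.6 in the controls against 127 to 240.0 in the knockouts, with Pdgfra at 0 by the gate. The 4 smooth muscle markers summed to 321, 120.2 and 64.4 and to 21.4 to 220.0. The 4 mast cell markers were 0 to 94.7 in the controls and 1016 in knockout 4, with 1.14 to 80.4 in the other knockouts. The 4 endothelial markers summed to 194 in knockout 4 against 12.5 to 25.1 in the other 6 libraries, and 12 macrophages of knockout 4 also met the endothelial gate. Neutrophil markers, the type with the highest Wfdc17, summed to 23.3 to 44.5 in the controls against 32.2 to 54.6 in the knockouts. Leaving out every macrophage that met another gate left the median of the 9 genes at 0.53. The part of these cells in the differences was otherwise not tested, and fewer cells of a kind cannot be told apart from less RNA per cell in a sum.

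The macrophage share of kept cells was 4.51%, 6.99% and 2.63% in the controls against 3.48%, 6.35%, 5.69% and 8.73% in the knockouts. The groups overlapped, with means of 4.71% ± 2.18 (SD, n = 3) and 6.06% ± 2.16 (SD, n = 4) and a difference of 1.35 percentage points (exact two-sided permutation p = 0.457, smallest possible 0.0286). Without flox control 3 the difference was 0.311 points.

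Macrophages were next divided within each library by whether Lyve1 was detected, after every cell had been thinned to 2000 UMIs so that depth could not set detection. 474 macrophages with fewer UMIs were left out. Lyve1 was detected in 350 of 416, 595 of 700 and 57 of 112 flox control cells and in 215 of 284, 469 of 581, 543 of 649 and 403 of 529 knockout cells. Flox control 3, at 50.9%, lay apart from the other 6 libraries (75.7% to 85.0%). Each library gave a sum over both kinds of cell, and the kinds were compared with the library as a block.
Of 3726 genes tested, 22.8% were called by edgeR, 11.1% higher and 11.7% lower in Lyve1-detected cells. 6 of the 7 tested genes among the 8 others were called higher, and 1, Retnla, was not called. Cd209g was too low to be tested. The median log2 fold change of the 7 was 1.52 against -0.00959 over all genes tested. The 4 gate genes were called higher in Lyve1-detected cells too (log2 fold change 0.44 to 0.77). They chose the cells, so this is a limit of the division and not a result. How far the gate left out cells with less of them was not tested.
Folr2 averaged 1214 ± 319 in Lyve1-detected cells and 288 ± 102 in the others (SD, n = 7 libraries). It was higher in 7 of 7 libraries, with a log2 fold change of 2.04 (SE 0.15, adjusted p = 3.05e-09).
Cd209f averaged 313 ± 129 against 62.7 ± 48.9 and F13a1 4061 ± 877 against 1378 ± 196. Their log2 fold changes were 2.24 (SE 0.21) and 1.52 (SE 0.08), each higher in 7 of 7 libraries. Cd209f was 0 to 143 in the undetected cells of the libraries, from few UMIs, and 105 to 469 in the detected ones. It thus met the low-count filter mainly through Lyve1-detected cells, and its call is a description. Wfdc17 (1.53), Cd163 (1.32) and Mrc1 (0.71) were also higher in every library, and Mrc1, at 2646 ± 420.4 against 1606 ± 401, had the smallest difference. Cd209g, untested, was 26.3 to 115 against 7.25 to 35.7 and higher in 7 of 7. The undetected sums held 55 to 126 cells at 2000 UMIs each, so its lowest values rest on very few UMIs.
Retnla was 1140.0, 2237 and 1500.0 in Lyve1-detected cells of the flox controls against 1583, 3576 and 2400.0 in undetected cells, and 3363, 1595, 2794 and 4293 against 3457, 3656, 1448 and 4774 in the knockouts. Only knockout 3 had more in Lyve1-detected cells. The log2 fold change was -0.36 (SE 0.15, adjusted p = 0.0992). It crossed the threshold without knockout 3 (-0.56, adjusted p = 0.00165) and without the filter on low counts, and turned to 0.20 at a depth of 1000 UMIs.

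**Figure D4:**
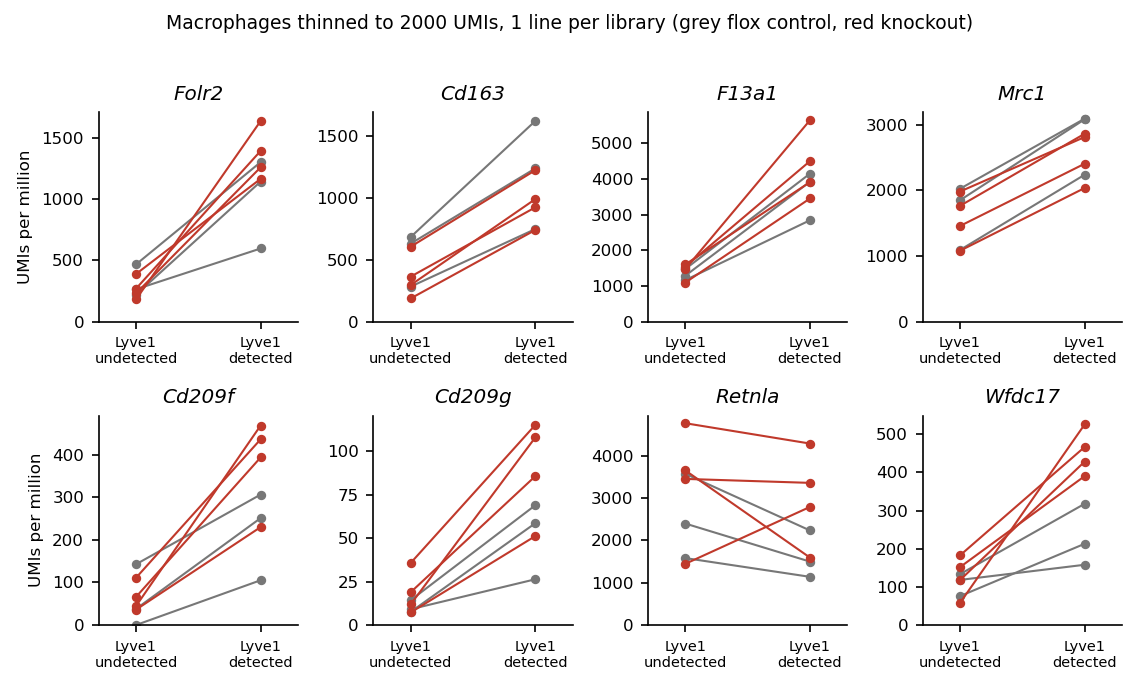
CPM in macrophages without and with a Lyve1 UMI, each cell thinned to 2000 UMIs, 1 line per library (grey flox control, red knockout). Lines rise in all 7 libraries for 7 of the 8 genes, and for Retnla in 1.

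The other lists differed in direction across this division. Of 25 tested residency genes 20 were called higher and 1 lower. Vsig4, a complement receptor (log2 fold change 3.62), the lectin gene Fcna (3.26), the endothelin receptor gene Ednrb (2.52), Timd4, a receptor for dying cells (2.20), Ltc4s (1.95) and the chemokine gene Ccl8 (1.77) were among the 10 largest rises, with Folr2, Cd209f, Fxyd2 (2.00) and P2ry13 (2.00). All 8 tested genes of antigen presentation and recent monocyte origin were called lower, with Ccr2, the receptor for monocyte entry, at -2.06 and H2-Aa at -1.22. Of 16 tested inflammation genes 14 were called lower and 0 higher. Il1b averaged 47.3 CPM in Lyve1-detected cells and 653 in the others (log2 fold change -3.74, SE 0.16, lower in 7 of 7 libraries). Ccl5 (-2.83), the lipase gene Lpl (-2.74), Glipr1 (-2.51), Fn1 (fibronectin, -2.43), Cd52 (-2.35), Il1a (-2.20), Ptgs2 (-2.09), Ccr2 and Cxcl3 (-2.04) completed the 10 largest falls. Col1a1 and Myh11, the tested fibroblast and smooth muscle markers, were called lower too (-0.94 and -1.32). Vsig4, P2ry13, Ccl8 and Fcna averaged only 9.44, 16.9, 40.2 and 41.0 CPM in undetected cells. They thus met the low-count filter mainly through Lyve1-detected cells. Cxcl3 and Glipr1, at 35.1 and 41.4 CPM in detected cells, met it mainly through the undetected ones. These calls are descriptions, and how many other called genes share this limit was not tested.

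The difference between the 2 kinds of macrophage was then compared between genotypes. None of 4607 genes was called (0% by edgeR, 205 with an unadjusted p under 0.05, 0 by DESeq2). For the tested genes the change in log2 fold change between genotypes was 0.63 for Folr2 (SE 0.30), 0.80 for Cd209f (SE 0.46), 0.60 for Wfdc17 (SE 0.36), 0.48 for Retnla (SE 0.29), 0.31 for Cd163, 0.12 for F13a1, -0.05 for Cd209g and -0.08 for Mrc1, each with an adjusted p of 0.999. Cd209g passed the low-count filter of this fit, though not that of the division. In undetected cells Cd209f was 0 to 143 CPM and Cd209g 7.25 to 35.7. The values of these lectins here thus rest on few UMIs and are descriptions. Within Lyve1-detected cells Wfdc17 was 213, 318 and 158 in the controls against 526, 390.2, 428 and 467 in the knockouts, without overlap. Such cells were the larger part of the thinned macrophages in every library, so this is not independent of the comparison of all macrophages. In Lyve1-undetected cells the groups overlapped, at 75.8, 133 and 118 against 58.0, 152, 118 and 183. The undetected sums held only 55 to 126 cells, so these values rest on few UMIs. They cannot show whether the Wfdc17 difference is limited to Lyve1-detected cells.

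Detection was also compared gene by gene at equal depth. Of the 9 genes, a macrophage had a median of 5 detected in 6 libraries and 4 in flox control 3, and 0.429% to 5.29% of macrophages per library had none. Cells with a Cd209g UMI had Cd209f in 74.6% of cases on average over libraries, against 12.0% of cells without. These lectin genes share transcript sequence, and the part of reads counted for the wrong one in this gap was not tested. Cells with Lyve1 had Folr2 in 80.1% against 33.3%, a gap of 32.1 to 58.2 points over the 7 libraries. Given F13a1 or Mrc1, the gap in Lyve1 detection was 65.2 and 45.5 points, and given Folr2 it was 37.2. F13a1 and Mrc1 were found in 93.2% and 93.4% of cells, so few cells without them stand behind the first 2 gaps. Given Lyve1, the mean gap was 46.8 points for Folr2, 27.6 for F13a1 and 18.9 for Mrc1. Retnla was found in 26.8% of Lyve1-detected cells against 13.5% of the others, with a positive gap in 6 of 7 libraries, although its level was lower in Lyve1-detected cells in 6 of 7. Cd163 and Retnla were the 1 pair whose mean gap was negative. Cells with Retnla had Cd163 in 55.9% and those without in 62.2%, and the gap was positive in 2 of 7 libraries. Of Cd209g-detected cells, 57.7% had Retnla against 21.6% of the others, with a positive gap in 7 of 7 libraries. These gaps are descriptions, since cells of a library are not replicates.
Retnla, Cd209f and Cd209g were concentrated in few cells. A Retnla UMI was found in 26.3% of thinned macrophages, with a median of 11 and a highest value of 175 UMIs among those cells. The top 5% of cells held 45.6% to 83.2% of its UMIs in a library. Cd209f was found in 19.1% of cells and Cd209g in 9.32%, and the top 5% of cells held 51.8% to 91.7% and 63.5% to 100% of their UMIs. Mrc1, found in 93.4% of cells with a median of 5, had 11.9% to 15.7% of its UMIs in the top 5%. Retnla differed from the lectins in its count per cell, since their median among cells with a UMI was 2 for Cd209f and 1 for Cd209g.

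**Figure D5:**
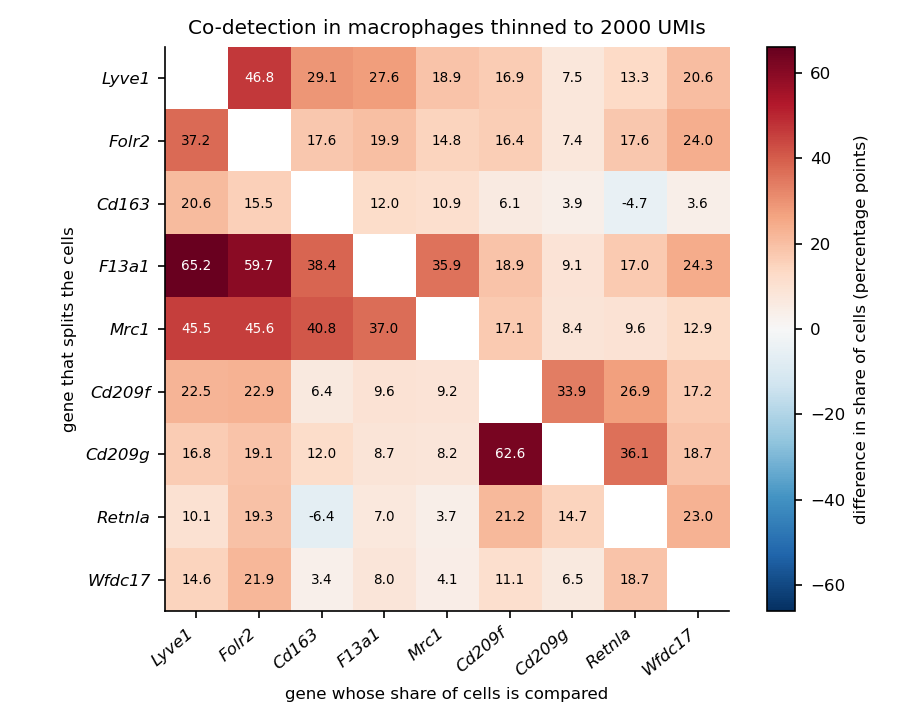
Difference, in percentage points, in the share of macrophages with a UMI of the column gene between cells with and without the row gene, as the mean over 7 libraries of cells thinned to 2000 UMIs. Every pair is positive except Cd163 with Retnla (-4.7 and -6.4).

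Outside macrophages the comparison between genotypes called no gene of the 9. In fibroblast-like cells 7 passed the filter and 6 of them were lower in the knockouts, with 0 without overlap (4.95% of 15060 genes) and 0 called (0% by edgeR, 708 genes with an unadjusted p under 0.05, 11 called by DESeq2). Lyve1 was 16.8 in flox control 1, 4.10 at the least in the other controls, and 4.83 to 7.35 in the knockouts, so only flox control 1 was high. Without flox control 1 the log2 fold change of Lyve1 turned from -0.45 to 0.48 and that of Folr2 from -0.87 to 0.86. In smooth muscle-like cells all 5 tested genes were lower, with 0 without overlap (5.08% of 12625 genes) and 0 called (0% by edgeR, 607 with an unadjusted p under 0.05, 7 by DESeq2). Cd163 was 5.79, 1.15 and 0.861 against 0.306, 0.406, 0.781 and 1.46 there (log2 fold change -2.15, SE 0.68, adjusted p = 0.947), and without flox control 1 the value was -0.80. For each gene flox control 1 had the highest level relative to its own macrophages in both cell types, between 0.354% and 1.09% of the macrophage level. Flox control 1 also had the most macrophage-gene cells with Pdgfra, and the part of mixed cells or free RNA in these values was not tested. In endothelial-like cells, where Slc38a2 is targeted, none of the 9 passed the filter among 7626 genes tested (0% called by edgeR, 472 with an unadjusted p under 0.05, 0 by DESeq2).

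The genes whose level over the 7 macrophage sums was most like the mean profile of the 9 were Tgfbrap1, Fcgr2b, Itpkc, Hpse, Polm, Dbt, Emc6, Bivm, Alyref and Sulf2 (Pearson r of log2 levels 0.985 to 0.996, n = 7). Fcgr2b, the inhibitory Fc receptor, was 917, 992 and 576 in the controls against 1047, 988, 1049 and 929.5 in the knockouts. These are descriptions over libraries that differ in depth and cell number. All 10 were lowest in flox control 3, and without it their r was 0.813 to 0.955 over 6 libraries. In that library Hpse, Polm and Bivm were at 0 CPM, and Dbt and Tgfbrap1 at 3.58 and 8.95. The r of these genes over all 7 libraries thus rests on very few UMIs there.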

How the data were processed

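The 7 libraries of mouse aorta cells were made on the BD Rhapsody system after enzymatic digestion and viability staining, per the labels' protocols. The authors deposited raw UMI counts per gene and barcode, and CASAVA 1.8, STARsolo 2.7.10a, Seurat and build mm10 are named in the submitters' processing notes. Neither the barcode rule nor the annotation is stated there. Groups follow the genotype label, and libraries are numbered in accession order, since the title of flox control 2 carries the number 1. Of 76359 barcodes, cells with under 200 genes, over 25% mitochondrial counts or a Scrublet doublet call (scanpy 1.11.5, expected rate 0.06, 0.869% to 2.07% of cells) were removed.

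Cells of a type had at least 3 of its 4 marker genes, and a cell that met the macrophage gate was put in no other type. UMI counts were summed per library and type, with at least 20 cells for a test, and tested with edgeR 4.0.16 (TMM, filterByExpr, quasi-likelihood, Benjamini-Hochberg over all tested genes). Log2 fold changes are knockout over control. The test was checked on simulated data with known changes. Those changes were larger than any of the 9 genes had between genotypes in macrophages. The check thus cannot show how often changes of that size would be called. The Lyve1 division used cells thinned at random to 2000 UMIs. Macrophage sums held 558626 to 4204420 UMIs, and the fewest for any of the 9 genes were 40 and 18 (Cd209f and Cd209g in flox control 3). Intervals cover counting error only.

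DESeq2 1.42.0, other size factors, no filter, other gates, other depths, a replicate block and leaving out each library were tried. The 9 genes and the lists were chosen with earlier results of these data known. Named besides the 9 are up to 4 genes per list with the smallest p in the macrophage comparison, the 10 largest changes each way in the Lyve1 division (adjusted p under 0.05, mean log2 CPM of at least 6) and the 10 genes most alike over libraries, without predicted genes. Other genes named were chosen after their values were seen. Clec7a, on the list of alternative activation, had no row. A result that this rule would name is not reported here. Coordinates are GRCm38 (GENCODE M21).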

Additional observations from a re-analysis of the deposited data

Results flagged for a closer look

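In 60 sets of 4 knockout values, 5 had 1 library whose distance from the nearest of the other 3 was large for the range of the set, and chance gives about 1 in 20 such sets. Knockout 1 had the highest C1qc in macrophages, at 4113 CPM against 3414 for the next. C1qc helped choose the cells, so this value is a description and supports nothing. It also had the highest Lyve1 in Lyve1-detected macrophages, at 5514 against 3239, and the lowest share of macrophages with a Cd209f UMI at equal depth, at 16.9% against 20.3%. Knockout 4 had the highest H2-Aa, at 6315 against 2994. Knockout 3 had the highest Ptgs2, at 170.3 against 101.7. The causes were not tested.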

How the results depend on the processing

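The 9 genes kept their sign between genotypes in macrophages under all 15 alternatives except Mrc1, which was 0.048 with the replicate block and ran from -0.20 to 0.042 when each library was left out (0.027, 0.035, 0.0067 and 0.042 without flox controls 1 and 2 and knockouts 1 and 4). Genes called in macrophages numbered 0, but 1 without the low-count filter, 2 with DESeq2, 1 with the replicate block, and 0 to 1 with a library left out. Wfdc17 was among those called by DESeq2.

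In fibroblast-like cells DESeq2 called 11 genes, the replicate block 13, and leaving out a library 0 to 6. Without flox control 1 the values for Lyve1, Folr2, F13a1, Mrc1 and Wfdc17 were 0.48, 0.86, 0.47, 0.28 and 0.031, and the lowest values with another library left out were -0.78, -1.55, -0.75, -0.91 and -1.30. Retnla was -1.08 with the block, -0.061 and -0.063 without flox controls 2 and 3, and between -1.35 (without knockout 4) and 1.43. In smooth muscle-like cells no filter, DESeq2 and the block called 7, 7 and 6 genes, and leaving out a library 0 to 2. Mrc1 there ran from -1.55 to 0.25. In endothelial-like cells no filter gave 52 calls.

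In the Lyve1 division calls stayed between 703 and 1167. Retnla was 0.20 at 1000 UMIs. For the difference of that division between genotypes, 1000 UMIs gave 4 calls, no filter 11, and leaving out a library 0 to 5. At 1000 UMIs Mrc1 was 0.066 and Cd209g 0.14. With a library left out Mrc1 ran from -0.15 to 0.033 (0.0049 without knockout 3), Cd209g from -0.36 to 0.35 (0.15 without flox control 1) and Cd209f from -0.56 to 1.16. The causes were not tested. Libraries with the same number had r = -0.009, -0.038 and 0.044, and those with unlike numbers had r from -0.17 to 0.25. So few pairs cannot show whether the numbers pair the libraries. The macrophage share differed by 0.311 to 2.49 points with a library left out. Flox control 3, with 144 macrophages, limits the precision of every control mean.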
